A study of Rattus norvegicus with 8 samples.

Results

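The contractile genes of smooth muscle were followed in whole rat testis after a single dose of Adjudin, which loosens the junctions that hold maturing germ cells to Sertoli cells. The set held 10 genes: the actins Acta2 and Actg2, the tropomyosins Tpm1 and Tpm2, the actin-binding proteins Cnn1 and Tagln, the myosin heavy chain Myh11, the myosin light chain Myl9, its kinase Mylk, and the intermediate filament gene Des. Its members were every probe set, among 20826 with 1 gene symbol for 14217 genes, that carries 1 of these names and no other. That gave 19 probe sets, of which 15 passed the signal minimum, at least 1 for each of the 10 genes. The other 4, which were 3 of Tpm1 and 1 of Tpm2, lay between scaled signals of 1.20 and 120.4 and were not tested. A further 5 probe sets naming Acta2 together with Actc1 were left out by the rule; their signals were 4.20 to 189.5.

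Testes came from adult Sprague-Dawley rats: 3 untreated (control), 2 taken 8 h and 3 taken 4 d after 50 mg/kg body weight of Adjudin by gavage, 1 array each. No vehicle group is named. Whether the arrays stand for different rats is not stated, and p-values therefore measure only how far these samples spread, which may be technical spread. Hybridisation took place on 3 days (runs): an untreated and a 4 d sample were in each, and an 8 h sample in run 1 and run 3 only. Between 51.6% and 59.0% of probe sets reached a scaled signal of 100 on an array, and arrays of a group correlated at 0.954 to 0.978. The share was lowest on the arrays of run 3 (control 53.1%, 8 h 51.6%, 4 d 53.9%). It was 57.6% to 59.0% on those of runs 1 and 2. Every listed Sertoli, Leydig and spermatid gene that had a probe set reached 100 on at least 1 array.

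In the testis these genes are best known from the peritubular myoid cells, flat smooth-muscle-like cells around each seminiferous tubule whose contractions move sperm and fluid toward the rete. The same genes serve the muscle of blood vessels and of the testis capsule, so whole-tissue RNA mixes these sources. In smooth muscle, calcium and calmodulin activate myosin light chain kinase, the product of Mylk. The kinase phosphorylates the regulatory light chain, and myosin heads on the heavy chain Myh11 then pull on actin filaments that carry tropomyosin and calponin. Transcription of many smooth muscle genes runs through serum response factor (SRF), which binds a DNA element called the CArG box, 2 Cs and 2 Gs around 6 bases that are all A or T.

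Promoter windows of 300 bases (250 before to 50 after the annotated start; RefSeq, build GRCr8) were given for 7 of the 10 genes, matched by gene identifier; Myh11, Tagln and Myl9 had none in that table. An exact CArG box, searched by that definition and identical in form on both strands, was found in 0 of these 7 windows and in 1.64% of all 33469 windows. With at most 1 letter changed it was found in Acta2 and Tpm1, 2 of 7, against 21.3% of all windows. These 2 are shown because they are the contractile genes with such a match; Des is shown beside them as a gene whose window held none. Capitals mark the matches with 1 letter changed, and all 3 sequences run 5′ to 3′ on the gene's own strand (Acta2 chr1:241172454-241172753, minus; Tpm1 chr8:76543366-76543665, minus; Des chr9:84299376-84299675, plus).
Acta2: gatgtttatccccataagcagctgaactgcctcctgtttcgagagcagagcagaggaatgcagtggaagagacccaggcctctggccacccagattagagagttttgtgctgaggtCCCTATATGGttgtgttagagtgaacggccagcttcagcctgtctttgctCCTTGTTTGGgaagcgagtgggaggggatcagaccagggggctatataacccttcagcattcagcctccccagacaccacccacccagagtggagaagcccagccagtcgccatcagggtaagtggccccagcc
Tpm1: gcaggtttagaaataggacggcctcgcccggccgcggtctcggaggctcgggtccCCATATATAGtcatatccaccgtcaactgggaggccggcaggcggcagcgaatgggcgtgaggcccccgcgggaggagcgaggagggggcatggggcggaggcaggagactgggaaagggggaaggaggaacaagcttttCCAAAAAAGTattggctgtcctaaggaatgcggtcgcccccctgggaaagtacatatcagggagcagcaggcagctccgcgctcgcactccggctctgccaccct
Des: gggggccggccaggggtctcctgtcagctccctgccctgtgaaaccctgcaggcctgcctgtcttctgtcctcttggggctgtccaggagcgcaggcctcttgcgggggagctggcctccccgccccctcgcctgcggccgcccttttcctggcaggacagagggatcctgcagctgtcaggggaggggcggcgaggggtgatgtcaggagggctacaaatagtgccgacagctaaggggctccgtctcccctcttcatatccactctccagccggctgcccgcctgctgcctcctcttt
In Acta2 the matches were CCCTATATGG and CCTTGTTTGG, which began 134 and 84 bases before the start, and those in Tpm1 were CCATATATAG and CCAAAAAAGT, at 195 and 55 bases before it. The 6-base MCAT element CATTCC, searched on both strands and without overlap with these matches, was in Acta2, Tpm1 and Mylk, 3 of 7, and in 14.2% of all windows. A match is only a run of letters and no measurement of binding.

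The first comparison, 4 d against control, asked where the contractile genes stood at the later time after the dose. Of the 10 genes, 1 rose, Myl9, and 0 fell in limma with Benjamini-Hochberg adjustment over all 19785 probe sets tested. Taking all 11241 genes tested, each by its brightest probe set, 7.63% rose and 5.19% fell. In either direction 12.8% were called, so the members' count lay close to that background. With the hybridisation run as a block, 3 rose (Myl9, Des and Tpm1) and 1 fell (Myh11), where 15.3% of all genes rose and 11.9% fell (27.2% in all). The median log2 change of the 10 was 0.07, against 0.03 over all genes, and after quantile normalization it was -0.03. Signals of 4 genes did not overlap between 4 d and control, namely Myl9, Des, Tpm1 and Myh11, and 34.2% of all genes showed as much (19.7% higher, 14.5% lower). In bulk tissue, fewer cells of a type and less RNA per cell cannot be told apart.

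**Figure D1:**
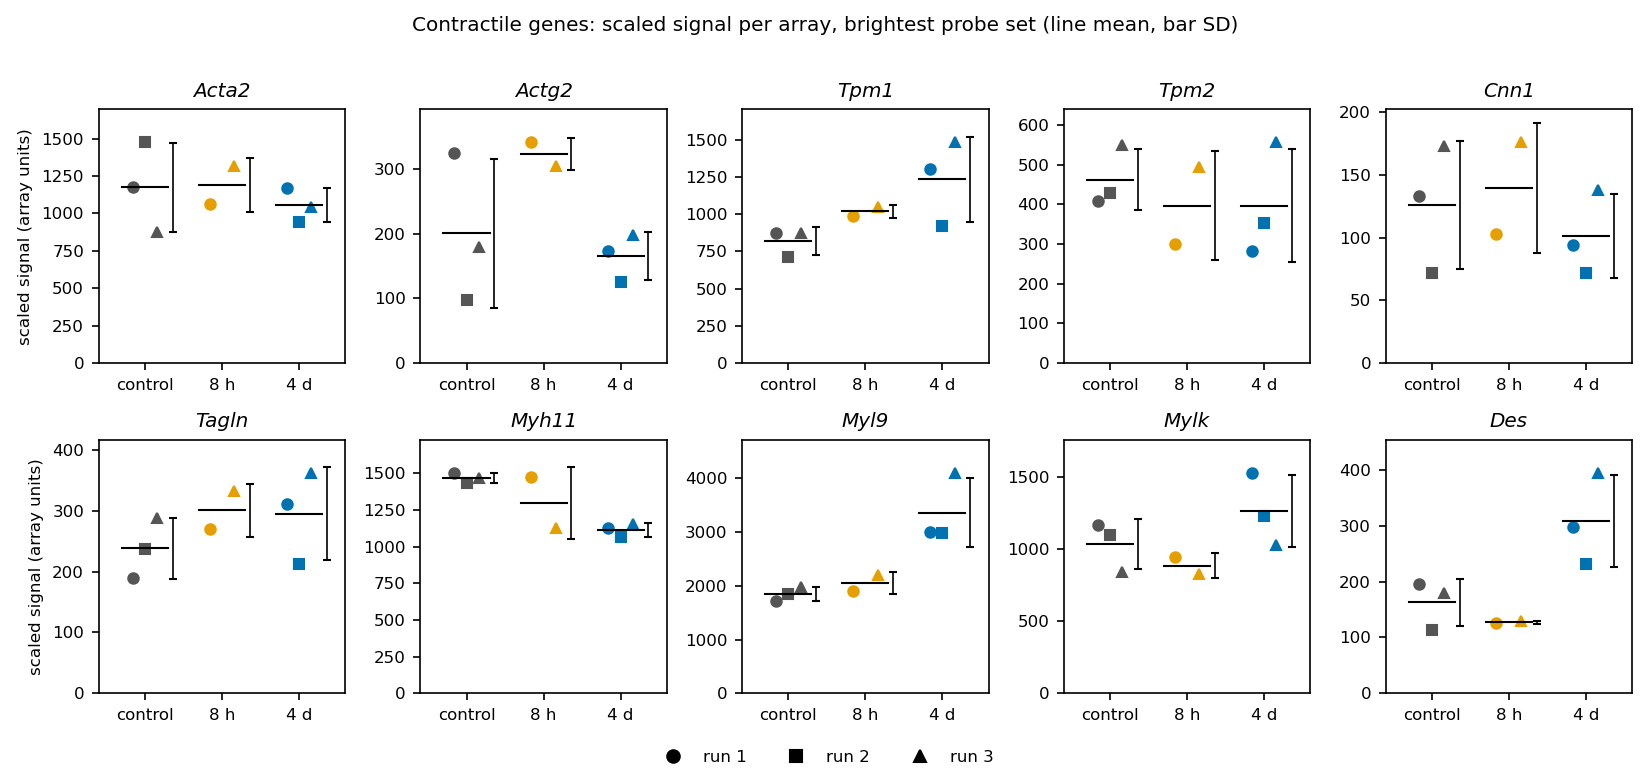
Scaled signal (array units, linear axis from 0) of the brightest probe set of each contractile gene on the 8 arrays, by group; symbols give the run, horizontal lines the group mean and side bars the SD. Myl9 and Des sat above every control at 4 d, Myh11 sat below every control, and Acta2, Actg2, Cnn1, Tagln and Tpm2 overlapped.

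The thick filament genes held the only call of this comparison, Myl9, and the lower values of Myh11. Myl9 encodes a regulatory light chain of smooth muscle and non-muscle myosin II, and it is also made outside muscle. Its scaled signal was 1725, 1846 and 1980 in the controls, 1909 and 2199 at 8 h, and 3006, 2975 and 4104 at 4 d. All 3 arrays at 4 d lay above the other 5, with means of 3362 ± 642.9 at 4 d and 1850 ± 127.6 in the controls (SD, n = 3 each). The rise was 1.79-fold (log2 0.84, SE 0.15, 95% interval 0.50 to 1.17; limma adjusted p = 0.00764) on the log2(signal + 32) scale. Within the 3 runs the log2 difference was 0.79, 0.68 and 1.04. Scaling all arrays to equal medians left a log2 of 0.79 but ended the call (limma adjusted p = 0.0985, range over all 17 alternatives 0.000179 to 0.0985). With that scaling 507 of all 11241 genes were called higher, against 858 in the main setting.

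Myh11, the smooth muscle myosin heavy chain and a standard marker of differentiated smooth muscle, had signals of 1504, 1433 and 1469 in the controls and 1475 and 1128 at 8 h. At 4 d its signals were 1128, 1063 and 1154, all below the lowest control, while the 8 h arrays fell on either side. The group means were 1469 ± 35.5 and 1115 ± 46.7 (SD, n = 3 each). The log2 difference of -0.39 (SE 0.13, 95% interval -0.68 to -0.09) did not pass in limma (adjusted p = 0.102), but did with the run as a block (adjusted p = 0.0274). It was -0.41, -0.42 and -0.34 in the 3 runs, so every run showed a similar difference. A dimmer probe set of Myh11, 1381219_at, had 106.6 to 189.3 in the controls and 96.8 to 164.7 at 4 d, which overlapped (log2 -0.11, SE 0.30).

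Mylk, the kinase that switches smooth muscle myosin on, gave 1165, 1101 and 842.2 in the controls, 944.4 and 823.8 at 8 h, and 1528, 1226 and 1031 at 4 d. The 4 d arrays overlapped the controls but lay above both 8 h arrays. Against control its log2 difference at 4 d was 0.27 (SE 0.18, 95% interval -0.13 to 0.67, limma adjusted p = 0.426). Its dim probe set 1384818_at ranged from 23.2 to 154.1 over the 8 arrays, and the array of run 3 was the lowest of each group. Mylk also encodes a long non-muscle kinase and a short protein without kinase activity, which these probe sets were not matched to.

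**Figure D2:**
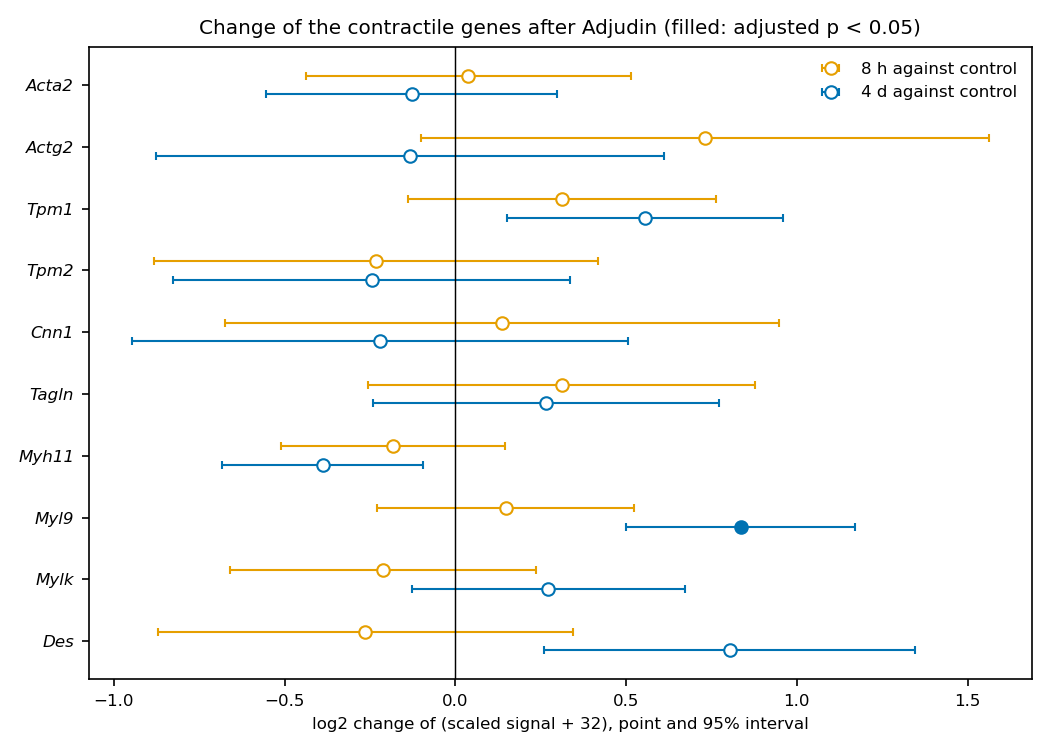
Log2 change of (scaled signal + 32) with 95% interval for the brightest probe set of each gene, 8 h and 4 d against the same 3 controls; filled points passed an adjusted p of 0.05. Only Myl9 at 4 d is filled, and the intervals of Des, Tpm1 and Myh11 at 4 d also leave out 0.

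The thin filament genes did not move as a group. Acta2, smooth muscle alpha actin and the usual stain for peritubular cells, had signals of 1175, 1474 and 879.4 in the controls, 1061 and 1317 at 8 h, and 1173, 945.9 and 1046 at 4 d. These groups overlapped throughout, and the controls alone spanned all the other arrays. The log2 difference at 4 d was -0.13 (SE 0.19, 95% interval -0.55 to 0.30), with -0.0023, -0.62 and 0.24 in the 3 runs. Without control 2, the brightest array, it was 0.05.

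Actg2, the gamma actin of visceral smooth muscle, was dimmer, at 325.1, 96.96 and 179.9 in the controls, 340.9 and 305.3 at 8 h, and 172.9, 125.0 and 198.1 at 4 d. The control arrays differed more from each other than the 4 d arrays did. The log2 difference of -0.13 at 4 d (SE 0.33, 95% interval -0.88 to 0.61) became 0.24 without control 1. At 8 h it was 0.73 (SE 0.37, 95% interval -0.10 to 1.56), with 0.06 in run 1 and 0.67 in run 3.

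Tropomyosins lie along actin and gate the access of myosin; Tpm1 and Tpm2 each give muscle and non-muscle forms by alternative splicing. The brightest probe set of Tpm1, 1370287_a_at, had 870.9, 711.3 and 873.0 in the controls, 988.4 and 1051 at 8 h, and 1302, 920.9 and 1482 at 4 d. Every treated array lay above every control. At 4 d the log2 difference was 0.55 (SE 0.18, 95% interval 0.15 to 0.96; limma adjusted p = 0.0898), and the fit with run blocks gave an adjusted p of 0.00493. In the 3 runs it was 0.56, 0.36 and 0.74. It passed in only 2 of 17 alternatives, the run block and the fit without 4 d replicate 2 (log2 0.75, limma adjusted p = 0.0281). The highest limma adjusted p among the 17 was 0.294.

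The probe sets of Tpm1 did not all agree. A second one, 1370288_a_at, had 369.1, 256.7 and 264.1 in the controls and 436.7, 402.3 and 418.8 at 4 d, without overlap. Its log2 difference was 0.47 (SE 0.18, limma adjusted p = 0.145, or 0.0333 when the block was added). For 1368724_a_at the difference was 0.64 (SE 0.34, limma adjusted p = 0.308, or 0.0461 with the block), and its groups overlapped. In contrast 1395794_at had 187.5 to 237.1 in the controls and 185.3 to 235.5 at 4 d (log2 -0.07, SE 0.22). That probe set was the lowest of the 4 at 8 h relative to control (171.3 and 101.6, both below every control; log2 -0.57, SE 0.24, unadjusted p = 0.0405, limma adjusted p = 1.00). The 3 untested probe sets included 1371241_x_at, with 2.40 to 62.8 in the controls and 84.8 to 120.4 at 4 d. Which spliced forms each probe set detects was not analysed here.

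**Figure D3:**
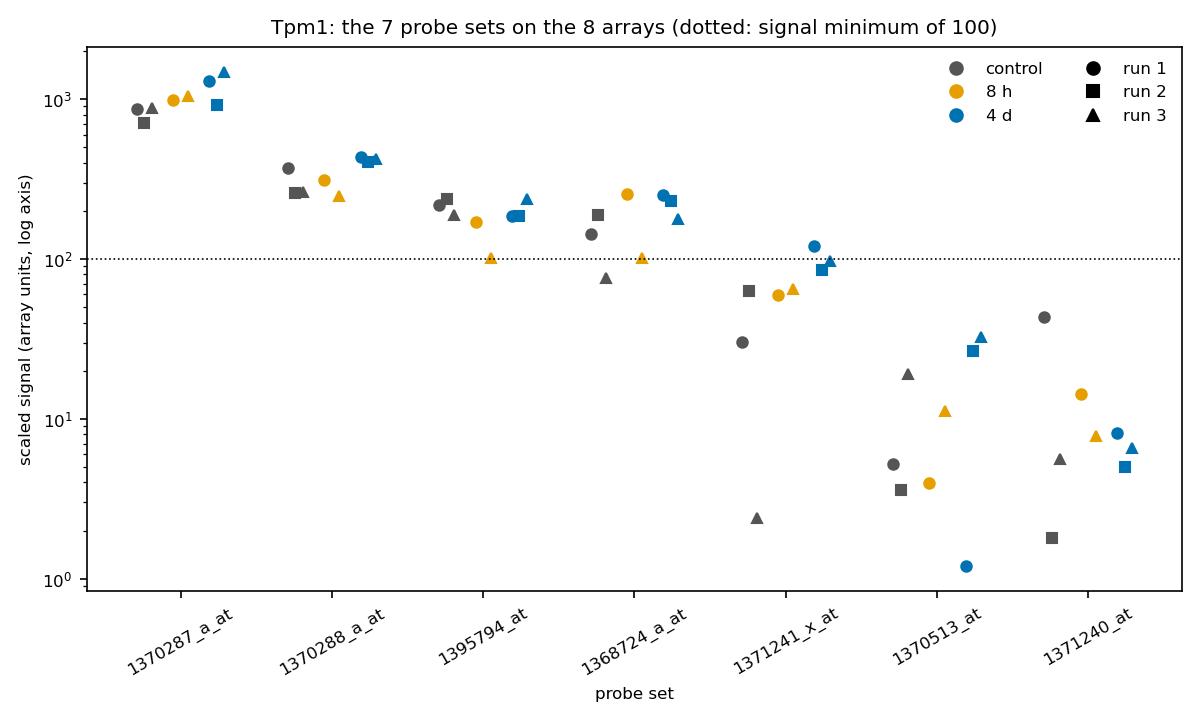
Scaled signal (log axis) of the 7 Tpm1 probe sets on the 8 arrays; colour gives the group, symbol the run, and the dotted line the signal minimum of 100. At 4 d the leading 2 probe sets lay above every control, 1395794_at overlapped the controls, and the 2 dimmest never reached the minimum.

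Tpm2, a second muscle tropomyosin, read 408.0, 428.6 and 549.9 in the controls. It read 299.7 and 493.0 at 8 h, then 281.7, 352.1 and 555.6 at 4 d. All groups overlapped, and the array of run 3 was the highest in each of the 3 groups. The log2 difference at 4 d was -0.25 (SE 0.26, 95% interval -0.83 to 0.34, limma adjusted p = 0.654).

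Of the proteins that bind the thin filament, Cnn1 (calponin 1), an inhibitor of actomyosin and a late marker of smooth muscle, was near the signal minimum. It had 132.9, 72.2 and 173.5 in the controls, 102.8 and 175.9 at 8 h, and 94.4, 71.6 and 138.1 at 4 d. The arrays of run 2 were the lowest in both groups they belonged to. The log2 difference at 4 d was -0.22 (SE 0.33, 95% interval -0.95 to 0.50, limma adjusted p = 0.764). Tagln (transgelin, or SM22 alpha), an actin cross-linker and an early smooth muscle marker, had 188.9, 236.5 and 288.7 in the controls, 269.9 and 331.5 at 8 h, and 311.5, 211.9 and 362.1 at 4 d. Again the groups overlapped, with a log2 difference of 0.27 at 4 d (SE 0.23, 95% interval -0.24 to 0.77, limma adjusted p = 0.562).

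Des encodes desmin, the intermediate filament protein of muscle cells, which ties the contractile lattice to the cell membrane. Its signal was 194.9, 114.2 and 178.7 in the controls, 125.4 and 129.1 at 8 h, and 297.9, 231.7 and 394.4 at 4 d. All 3 arrays at 4 d were above all others, with means of 308.0 ± 81.8 against 162.6 ± 42.7 in the controls (SD, n = 3 each). The log2 difference of 0.80 (SE 0.24, 95% interval 0.26 to 1.35) missed the threshold in limma (adjusted p = 0.0702). It passed with the run as a block (adjusted p = 0.00611), and was 0.54, 0.85 and 1.02 in the 3 runs. It also passed when only probe sets with a signal of 100 on all 8 arrays were tested. These were the only 2 of 17 alternatives in which Des passed.

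The second comparison asked about the early response. At 8 h, 0 of the 10 genes rose and 0 fell in limma, with and without the run as a block. None (0) of their brightest probe sets had an unadjusted p below 0.05, where 773 of all 19785 probe sets tested did. Over all genes 0.0801% rose and 0% fell (with the block 0.32% and 0.0089%, together 0.329%), so few calls were available to any list. The signals of 1 member, Tpm1, did not overlap between 8 h and control, against 15.6% of all genes (7.92% higher, 7.71% lower). The group of 2 arrays left wide intervals: for Acta2 -0.44 to 0.51, for Myh11 -0.51 to 0.15 and for Des -0.87 to 0.34 on the log2 scale. Des was lower than its run's control in both runs at 8 h (log2 -0.53 and -0.39).

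**Figure D4:**
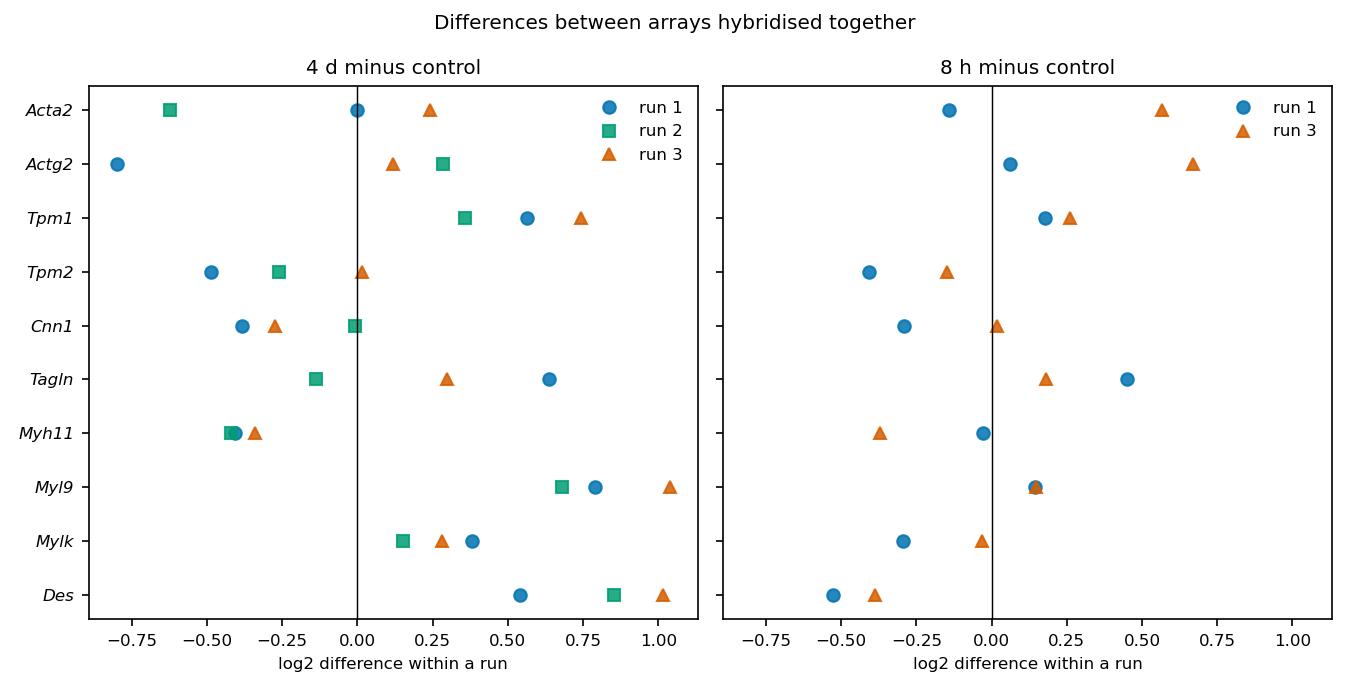
Log2 difference between arrays of the same run for each contractile gene, 4 d minus control in 3 runs and 8 h minus control in 2. Myl9, Des, Tpm1 and Mylk lay above 0 in every run at 4 d and Myh11 and Cnn1 below 0, while Acta2, Actg2, Tagln and Tpm2 had runs on both sides.

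Between 4 d and 8 h, 2 of the 10 genes were higher and 0 lower in limma, where 4.46% of all genes were higher and 3.58% lower (8.03% in all). Des was 2.09-fold higher at 4 d (log2 1.07, SE 0.27, adjusted p = 0.0493) and Myl9 1.61-fold (log2 0.69, SE 0.17, adjusted p = 0.0413). Both values sat near the threshold, and only 6 of 17 alternatives for Des and 7 of 17 for Myl9 kept the call. Leaving out control 1, either 8 h array or any 4 d array ended both calls, and without control 2 that of Myl9 was lost too (adjusted p up to 0.218 for Des and 0.203 for Myl9 with 1 array left out). With the run as a block Mylk was also higher (log2 0.46, adjusted p = 0.0365), so 3 members were higher where 10.3% of all genes were, and 0 were lower where 9.5% were (19.8% in all). Groups did not overlap for 4 members, Des, Myl9 and Mylk above and Actg2 below, against 40% of all genes (23.6% higher, 16.4% lower). Actg2 was lower at 4 d on every array (log2 -0.86, SE 0.37), which did not pass (adjusted p = 0.247).

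Among the closest relatives of these genes, most passed the test at 4 d. Cells outside muscle build stress fibres and cell cortex from related proteins, and of 14 such genes 12 were tested. Of the 12, 8 rose, 0 fell and 4 did not pass in limma, where 7.63% of all genes rose and 5.19% fell. Their median log2 change was 1.05 against 0.03 over all genes. After equal-median scaling 6 rose, where 507 of all 11241 genes rose, against 858 in the main setting. Tagln2 went from 441.8 ± 71.6 to 2385 ± 233 (SD, n = 3 each; log2 2.36), Myh9, the non-muscle myosin IIA heavy chain, rose by a log2 of 2.16, Tpm4 by 2.08 and the calponin Cnn3 by 1.89. The other 4 were Cnn2 (log2 1.22), the light chains Myl12b (1.07) and Myl12a (0.82), and vimentin, Vim (1.02). Values of Actg1, Tpm3, Myh10 and Myh14 were between log2 -0.21 and 0.01.

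Within each array, a relative was set against the contractile gene of its own family, in all 15 pairs that the names allow, a comparison chosen after the data were seen. The quantity is the log2 change of the relative at 4 d minus that of the contractile gene, a difference between changes and not between levels. It was 2.55 for Myh9 against Myh11, 2.11 for Cnn3 against Cnn1, 2.09 for Tagln2 against Tagln and 2.32 for Tpm4 against Tpm2. It was 1.52 for Tpm4 against Tpm1 and 1.44 for Cnn2 against Cnn1. In these 6 pairs the log2 ratio of relative to contractile gene was higher on every 4 d array than on every control array, and the difference was positive in all 3 runs. In 1 pair without overlap it was negative (Tpm3 against Tpm1, log2 -0.77). The 2-sided exact permutation p, with arrays permuted without regard to run, was 0.1 for these 7 pairs (0.214 after adjustment over 15 pairs). That is the smallest value 3 against 3 arrays can give, so no pair could have passed the threshold and the test decides nothing. The relatives in the 6 positive pairs had already been called higher at 4 d, so these ratios largely restate that rise. Against Myl9 the difference was -0.02 for Myl12a and 0.24 for Myl12b, and for Vim against Des it was 0.22, all with overlap. The remaining pairs also overlapped. Against Myh11 the difference was 0.40 for Myh10 and 0.28 for Myh14, and against Tpm2 it was 0.03 for Tpm3. For Actg1 it was 0.10 against Acta2 and 0.11 against Actg2.

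**Figure D5:**
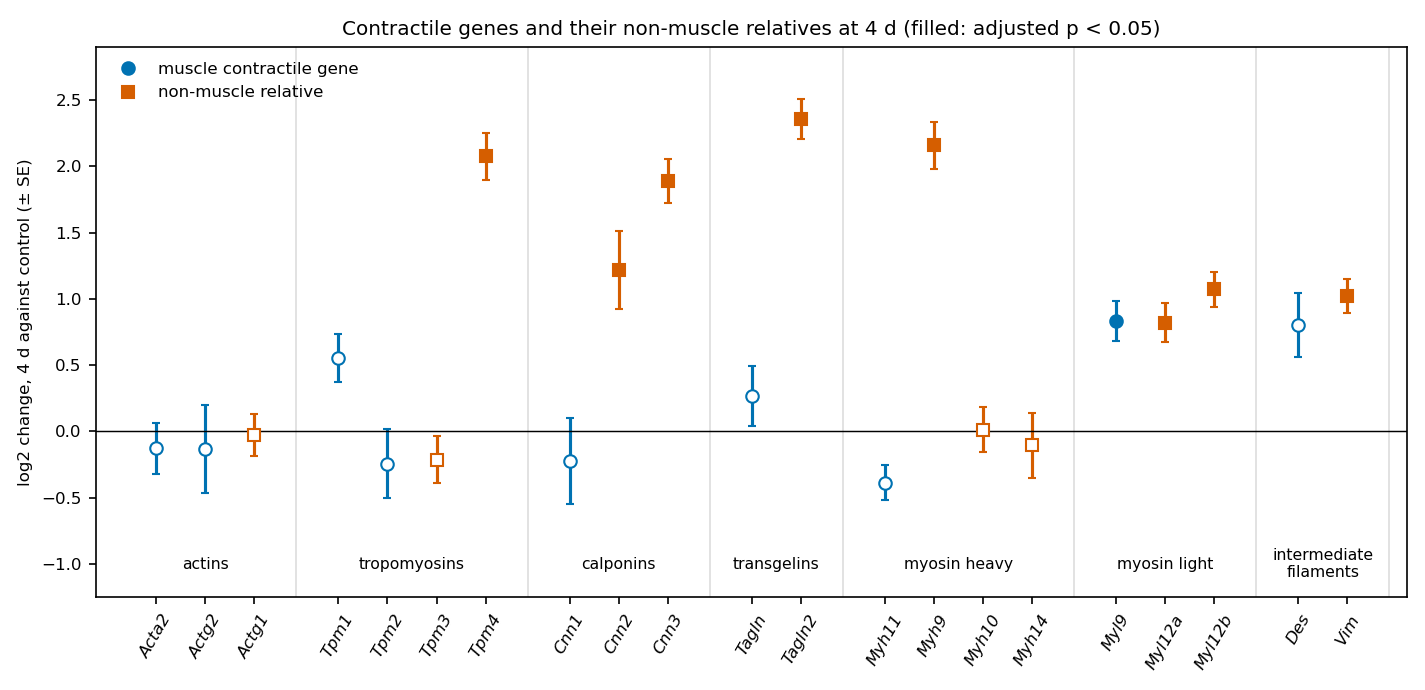
Log2 change at 4 d against control (± SE) of the contractile genes (circles) and their non-muscle relatives (squares), by protein family; filled symbols passed an adjusted p of 0.05. Tagln2, Myh9, Tpm4, Cnn3 and Cnn2 lie above 1 while Tagln, Myh11, Tpm2 and Cnn1 lie between -0.39 and 0.27; Myl9 and Des lie near their relatives.

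Other genes of the smooth muscle programme, such as caldesmon and leiomodin 1, did not pass. Of 14 listed, 12 were tested, and 0 rose and 0 fell at 4 d in limma, with a median of 0.06 and 2 at an unadjusted p below 0.05. Over all genes 7.63% rose and 5.19% fell. Of all 19785 probe sets tested, 4498 had an unadjusted p below 0.05 in limma at 4 d. The member with the smallest p was Csrp1, a LIM protein of actin bundles (570.4 ± 47.3 to 799.2 ± 8.20, SD, n = 3 each; log2 0.47, adjusted p = 0.0524). Once run was added as a block, Csrp1 (adjusted p = 0.0140) and the integrin chain Itga8 (log2 0.98, adjusted p = 0.0309) passed. With the block 15.3% of all genes rose, so 2 of 12 lay close to that background. Of 16 genes of contraction signalling, 10 were tested and 0 passed in either direction in limma (2 at an unadjusted p below 0.05). With the block, 3 of the 10 rose, where 15.3% of all genes did. They were the myosin phosphatase subunits Ppp1cb (log2 0.51) and Ppp1r12a (0.37), and the GTPase Rhoa (0.39). Of 9 genes for SRF and its partners 6 were tested, and Fhl2, a LIM cofactor, rose from 153.5 ± 31.5 to 443.1 ± 112.4 (SD, n = 3 each; log2 1.34, adjusted p = 0.00500). Mrtfa, an actin-sensing coactivator of SRF, had a log2 change of -0.63 (limma adjusted p = 0.0759, or 0.00254 with the block). Elk4, another SRF partner, had 0.56 (limma adjusted p = 0.0764, or 0.0147 with the block), and Srf itself -0.11 (limma adjusted p = 0.847). At 8 h, 0 genes of these 3 lists or of the non-muscle list rose or fell in limma. At an unadjusted p below 0.05 stood 1 of 6 tested SRF partners and 2 of 12 tested non-muscle genes. Among all 19785 probe sets tested, 773 did at 8 h.

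Peritubular cells also make signalling and matrix proteins, and some of those genes were higher. Of 12 such genes 8 were tested and 3 rose at 4 d: Nr2f2, a nuclear receptor of interstitial and peritubular cells (475.3 ± 42.5 to 905.9 ± 62.2, SD, n = 3 each; log2 0.89), the growth factor receptor Pdgfra (0.85) and the basement membrane collagen Col4a1 (0.64). All 8 had positive values, with a median of 0.84, and 6 rose with the run as a block. Over all genes 7.63% rose, or 15.3% with the block. After equal-median scaling 1 rose and the median was 0.79, where 507 of all 11241 genes rose, against 858 in the main setting. Summed over the 10 of them with a probe set, the scaled signal was between 3082 and 4439 on control arrays, 3537 and 3653 at 8 h, and 5837 and 6764 at 4 d. The 10 contractile genes summed to between 7415 and 7689, 7516 and 7954, and 8123 and 10465. Without Myl9 the other 9 summed to between 5435 and 5965, 5607 and 5755, and 5148 and 6361, so the groups then overlapped. Several of these genes are also active in Leydig cells, other interstitial cells or vessels.

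Some marker genes of other cell types also passed the test at 4 d, where 7.63% of all genes rose and 5.19% fell. With the block these shares were 15.3% and 11.9%. Of 10 spermatid genes tested 3 fell (10 with run blocks), and their summed signal was 223794 to 336648 in the controls, then 161561 to 226561 at 4 d. Of 8 macrophage genes 5 rose and 1 fell, or 7 and 1 with the block (10246 to 11058, then 13290 to 15434). The 1 that fell, Aif1, was the brightest of them, with a mean of 6836 in the controls and 4918 at 4 d, so the sum and its largest part moved in opposite directions. Of 8 Leydig cell genes 2 rose, or 5 with the block (14480 to 20465, then 21646 to 34746). Of 10 Sertoli cell genes 2 rose, Testin and Cldn11, and 1 fell, Rhox5 (23158 to 27313, then 36587 to 48283). The other 7 did not pass in limma, and with the block 4 of the 10 rose and 2 fell. Clu, not called without the block, was the brightest, with a mean of 15970 in the controls and 22861 at 4 d. Cldn11 went from 6046 to 10323 and Testin from 80.1 to 4026, so few genes made up most of that sum. Of 8 endothelial genes Cldn5 rose, or 2 genes with the block (1657 to 1897, then 2530 to 2803). Cldn5 alone went from a mean of 476.1 in the controls to 924.5 at 4 d. Of 6 pericyte and vascular mural genes Abcc9 rose, or 2 genes with the block (451.0 to 801.3, then 841.1 to 1270.0). Both tested red cell genes, Hbb and Alas2, rose with and without the block (3018 to 4968, then 6396 to 11216). Of 7 striated muscle genes tested 0 rose and 0 fell in limma, with and without the block. None (0) had an unadjusted p below 0.05, where 4498 of all 19785 probe sets tested did. Ckm, Mb, Myh2, Myh4 and Myh7 stayed below 100 on all 8 arrays. Over the 12 with a probe set the sum was 2307 to 2966, then 2357 to 3077, most of it Myh1 (1376 to 2256 over the arrays). The endothelial sums likewise cover 9 genes and the pericyte and mural sums 7, untested genes included. After equal-median scaling 0 of the spermatid, pericyte and red cell genes passed, and 0 macrophage genes fell. Calls were fewer over all 11241 genes too, with 507 higher and 306 lower, against 858 and 583 in the main setting. The part of these cell types in the values of Myl9, Des, Tpm1 and Myh11 was not tested.

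Arrays also differed within groups in ways that several contractile genes shared. Deviations from the group mean over the 8 arrays were positively related in 27 of 45 gene pairs, with a median r of 0.21. This is a description, as all genes share the arrays and their runs, and other gene pairs were not computed. Within a group the deviations cancel out, and those of the 8 h arrays mirror each other, so fewer than 8 values are free. The highest r values were for Myl9 with Tpm2 (0.92), Des with Tpm1 (0.91), Actg2 with Des (0.85) and Cnn1 with Des (0.84). The lowest was for Mylk with Tpm2 (-0.90). In run 2, Actg2, Cnn1, Des and Tpm1 lay below their group mean by an average log2 of -0.52, -0.44, -0.36 and -0.29. The fluidics protocol was version 4 for both arrays of run 2 and version 5 for all others, so run 2 and that version cannot be told apart. Acta2 and Myh11, both standard myoid markers, did not follow each other (r = -0.34).

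The genes whose signals over the 8 arrays were most like those of Acta2, among 11231 others, were Ankrd13d (r = 0.94), Nsmce4a (0.90), Brf2 (0.90), Tmie (0.87) and C1galt1 (0.86). For Myh11 they were Mtrr (0.97), Grm5 (0.95), Hspb7 (0.95), Zfp513 (0.94) and Rapgef5 (0.94). None (0) of the other 9 contractile genes was ranked here, since members were left out of this search. These are the highest of 11231 correlations, each over only 8 arrays and with differences between groups and runs left in. No test was made of them, so the names are a description and not evidence of shared regulation.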

How the data were processed

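RNA from 0.1 g of frozen testis was made into labelled cRNA from 5 µg of total RNA, per the labels' protocols. The deposited values are signal intensity per probe set from MAS 5.0, per the labels; GeneSpring 7.2 is also named there. Each array's deposited intensity has a 2% trimmed mean near 250.1. Settings files, whose entries have no measured unit (other), were deposited by the authors and read only for the hybridisation day, which gave 3 runs, and the fluidics version.

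Arrays were scaled to a 2% trimmed mean of 500 and log2(signal + 32) was taken, which understates changes of dim genes. Without the 57 control probe sets, those reaching a signal of 100 on 2 arrays or more entered limma 3.58.1 in R 4.3.3. The fit used all 8 arrays, trend, no block and a threshold of 0.05. It was tried on simulated arrays with independent noise and no run effect, so that check does not cover shared runs. The probe set of highest mean log2 signal stood for its gene. Entrez identifiers of 20764 probe sets matched RefSeq, and 0 symbols changed. Named were all member probe sets, up to 4 genes a list past the threshold with the largest changes or else the smallest p, and the 5 genes most like Acta2 and Myh11; genes beyond that rule, which make up small counts, were added after their values were seen.

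Members and lists were chosen with earlier results of these data known. The correlation of deviations from the group mean was 0.353 to 0.507 for arrays of different groups that shared a run, and at -0.476 to 0.246 where they did not, so control and 4 d arrays of one replicate number were paired through the run, and the run as a block was an alternative. Others were pseudocounts of 4 and 128, the signal minimum, quantile and equal-median scaling, averaging the probe sets of a gene, no trend and leaving out each array. Array number limited the precision.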

Additional observations from a re-analysis of the deposited data

Results flagged for a closer look

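Des and Myl9 differed between the times after the dose: their changes against the same 3 controls differed by a log2 of 1.07 and 0.69, 4 d over 8 h, by the direct test of 4 d against 8 h. Against control, Des was at log2 -0.26 at 8 h and 0.80 at 4 d, and Myl9 at 0.15 and 0.84. The direct test passed narrowly (limma adjusted p = 0.0493 for Des and 0.0413 for Myl9), and only 6 and 7 of 17 alternatives kept the calls.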

How the results depend on the processing

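Over 17 alternatives, 458 of 504 values of the 10 genes kept their direction and side of the threshold, 22 lost a call, 6 gained one and 18 changed sign, none of these called. The count of members higher at 4 d against control, 1 in the main setting, was 2 with a signal of 100 required on all 8 arrays (no value for Actg2 and Cnn1 there), 0 with equal array medians, 3 with the run as a replicate block, and 1 to 2 with 1 array left out; the count lower was 1 with the block. Members higher at 4 d against 8 h, 2 in the main setting, numbered 1 with a pseudocount of 4 and with quantile normalization, 0 with no signal minimum, equal medians or no trend, and 0 to 2 with 1 array left out. Where an 8 h array was left out, the lone one was assumed to vary like the others.

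Signs changed, with the block, for Cnn1 at 8 h (log2 -0.084) and for Tagln and Tpm2 at 4 d against 8 h (0.051 and 0.037), and with the mean of probe sets for Tpm1 at 8 h (-0.0090). With 1 array left out, values ranged from -0.32 to 0.046 for Acta2 and -0.50 to 0.24 for Actg2 at 4 d against control. At 8 h against control they were -0.15 to 0.21 (Acta2), -0.37 to 0.0059 (Myh11), -0.18 to 0.45 (Cnn1) and -0.56 to 0.098 (Tpm2), and at 4 d against 8 h -0.19 to 0.15 (Tagln) and -0.34 to 0.32 (Tpm2). The cause of these shifts was not tested. Beyond the calls given above and in the results, the block changed none of the members' brightest probe sets. Cnn1, Des, Actg2 and Tagln never exceeded a signal of 394.4, and the added 32 weighs most on such dim genes.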
